A study of Mus musculus with 23 samples.

Results

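The use of tubulin genes was followed through single mouse mesenchymal stem cells and single cardiomyocytes, to see which of them each cell type used and how far single cells of one type differed. The members are the rows with the symbols Tuba1a, Tuba1b, Tuba1c and Tuba4a (alpha tubulins) and Tubb2a, Tubb2b, Tubb3, Tubb4b, Tubb5 and Tubb6 (beta tubulins), 10 of the 23284 genes in the table, and they were chosen by name. Tubb3 is the member that the study placed among its neurogenic genes. The libraries came from 16 single bone marrow-derived mesenchymal stem cells (mMSC1 to mMSC16, purchased, 3-month-old male C57BL/6J mice, passages 6 to 11), 5 single HL-1 cardiomyocytes (HL1cm1 to HL1cm5, a C57BL/6J line, passages 70 to 85) and 1 population control of each (mMSC-PC and HL1cm-PC). HL-1 is a line from an atrial tumour driven by a viral large T antigen transgene and goes on dividing in culture, which limits it as a model of heart muscle. Neither cell type was treated, and the line and the purchased mMSCs each stand for a single source. Both cell types were captured on the same Fluidigm C1 chip for cells of 17 to 25 µm, the HL1cm after labelling with a cytoplasmic dye, and since no separate cultures are named, each type counts as 1 sample.

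Microtubules are hollow tubes built from dimers of an alpha and a beta tubulin. They form the mitotic spindle, carry transport by kinesin and dynein motors and shape the cell. Mammals make each subunit from several genes, called isotypes, whose proteins are closely alike and end in an acidic tail that lies on the outside of the microtubule and binds motors and modifying enzymes. Tubb3 is known as a marker of neurons, Tubb5 is used by most dividing cells, and Tubb6 is a divergent isotype found widely outside the nervous system.

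The bases that encode this tail are shown so that the isotypes can be compared at the end that motors and modifying enzymes meet. The last 60 coding bases, stop codon included, are given 5′ to 3′ on the coding strand from GENCODE M21 transcripts (GRCm38), with the codons for glutamate and aspartate in capitals.
Tuba1c: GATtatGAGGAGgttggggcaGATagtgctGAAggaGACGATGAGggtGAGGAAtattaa
Tuba4a: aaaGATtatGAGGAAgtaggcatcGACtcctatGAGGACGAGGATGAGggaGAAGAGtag
Tubb2a: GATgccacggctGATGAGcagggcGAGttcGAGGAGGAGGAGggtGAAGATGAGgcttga
Tubb2b: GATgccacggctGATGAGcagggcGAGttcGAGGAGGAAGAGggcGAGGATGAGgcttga
Tubb3: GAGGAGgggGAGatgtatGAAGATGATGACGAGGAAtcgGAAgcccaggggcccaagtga
Tubb4b: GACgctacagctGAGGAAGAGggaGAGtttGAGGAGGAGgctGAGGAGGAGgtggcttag
Tubb5: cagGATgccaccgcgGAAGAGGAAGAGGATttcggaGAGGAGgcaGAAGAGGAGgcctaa

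The 7 tails shown held 10 or 11 acidic codons among the 19 before the stop. Tubb2a and Tubb2b ended in nearly the same bases, while Tubb3 closed on a stretch without acidic codons after its acidic run. Over the whole protein Tuba1a and Tuba1b differed at 2 residues (99.6% identity) and Tubb2a and Tubb2b at 2 (99.6%). Tubb5 was 97.5% identical to Tubb4b, and Tubb3 was 91.1% identical to Tubb5 and 92.0% to Tubb6.

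This likeness sets which values can be told apart. Of all windows of 75 transcript bases, the length of 1 read, 45.1% of those in Tuba1a also occurred in another member, as did 58.8% in Tuba1b, 56.7% in Tuba1c, 40.2% in Tubb2a and 29.3% in Tubb2b. Counting every other annotated gene, predicted genes such as Gm49450 included, the shares were 68.2% for Tuba1a, 71.9% for Tuba1b, 56.7% for Tuba1c, 43.2% for Tubb2a and 32.2% for Tubb2b. Gm49450 overlaps Tuba1a and Tuba1b, so windows shared with it can be the same genomic bases. The windows come from GENCODE M21, a different annotation from the one the study used, so the shares may overstate the ambiguity of the deposited values. The counting may have divided reads among these 5 genes, so their separate values are uncertain. Tuba4a, Tubb3, Tubb4b, Tubb5 and Tubb6 shared no such window with another member, although 37.8% of the windows in Tubb4b also occurred in other genes, mostly its pseudogenes.

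In the GRCm38 build, all members had 4 exons in the transcript used. Tuba1b (chromosome 15, 98931425 to 98934565) and Tuba1a (98949837 to 98953703) lay on the minus strand and Tuba1c (99029891 to 99038110) on the plus strand of the same region. Gm49450 overlapped Tuba1a and Tuba1b. Tuba4a (chromosome 1, 75214228 to 75219865, minus strand) overlapped Stk16, and Tubb4b (chromosome 2, 25222160 to 25224702, minus strand) overlapped Fam166a. Tubb2a (chromosome 13, 34074274 to 34078007) and Tubb2b (34126748 to 34130466) were neighbours on the minus strand, and Tubb5 lay on chromosome 17 (35833921 to 35838306, minus strand). Tubb3 (chromosome 8, 123411424 to 123422015, plus strand) was overlapped by Gm20388, a longer gene model. Mc1r, next to Tubb3, was listed above 0 in 1 of 23 libraries (mMSC4, 1.37 FPKM), and Fam166a was listed at 0 in all 23.

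Levels are given as FPKM, as the authors deposited them. This unit divides the fragments of a gene by its exon length and by the mapped fragments of the library, so levels of different genes can be set side by side. The deposited values hold no read counts per gene, so the reads behind each value are unknown, and a value of 0 can be a transcript that was missed. The study lists the aligned read pairs of each single cell, but the zeros were not set against them here. Single mMSCs had 5178 to 7241 genes at 1 FPKM or more and single HL1cm 6428 to 7010. The labels were checked with marker lists. The 8 MSC markers summed to between 2529 and 7678 FPKM in mMSCs and between 557 and 1005 FPKM in HL1cm, where Ly6a, Cd9 and Col1a2 were listed at 0, while 9 cardiomyocyte markers summed to between 0 and 65.4 FPKM and between 30757 and 57443 FPKM. The 7 macrophage markers summed to between 3.10 and 369 FPKM in mMSCs and to at most 1.10 FPKM in HL1cm. Cd14 was above 0 in 15 of 16 mMSCs, Csf1r in 8 and Cd68 in 1, and Itgam reached at most 0.81 FPKM in a single mMSC. Ptprc, Emr1 and Lyz2 were listed at 0 in every library. The 4 endothelial markers summed to at most 10.8 FPKM in mMSCs and 13.8 FPKM in HL1cm. Whether cells of these other types bear on the tubulin values was not tested.

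The mMSCs and the HL1cm both used Tubb5 and Tubb4b but differed in the other beta tubulin genes. Tubb6 was the highest member in 12 of 16 mMSCs and Tubb5 in the other 4, while Tubb5 was the highest in 5 of 5 HL1cm. By median level in mMSCs, the order was Tubb6 (1154 FPKM), Tubb5 (572), Tuba1a (168), Tubb4b (154), Tuba1b (112), Tuba1c (109), Tubb2a (101), Tuba4a (10.4), Tubb3 (8.94) and Tubb2b (0). Ranges of all neighbours in this order overlapped. Within single mMSCs Tubb5 exceeded Tuba1a in 16 of 16, but Tuba1a exceeded Tubb4b in only 7 and Tuba1b exceeded Tuba1c in only 8, so these pairs had no fixed order. In HL1cm the order was Tubb5 (725 FPKM), Tubb4b (277), Tuba1b (184), Tuba1a (146) and Tuba1c (98.7), and only Tubb5 stood apart from its neighbour without overlap. The median of the other 5 members was 0 in HL1cm.

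**Figure D1:**
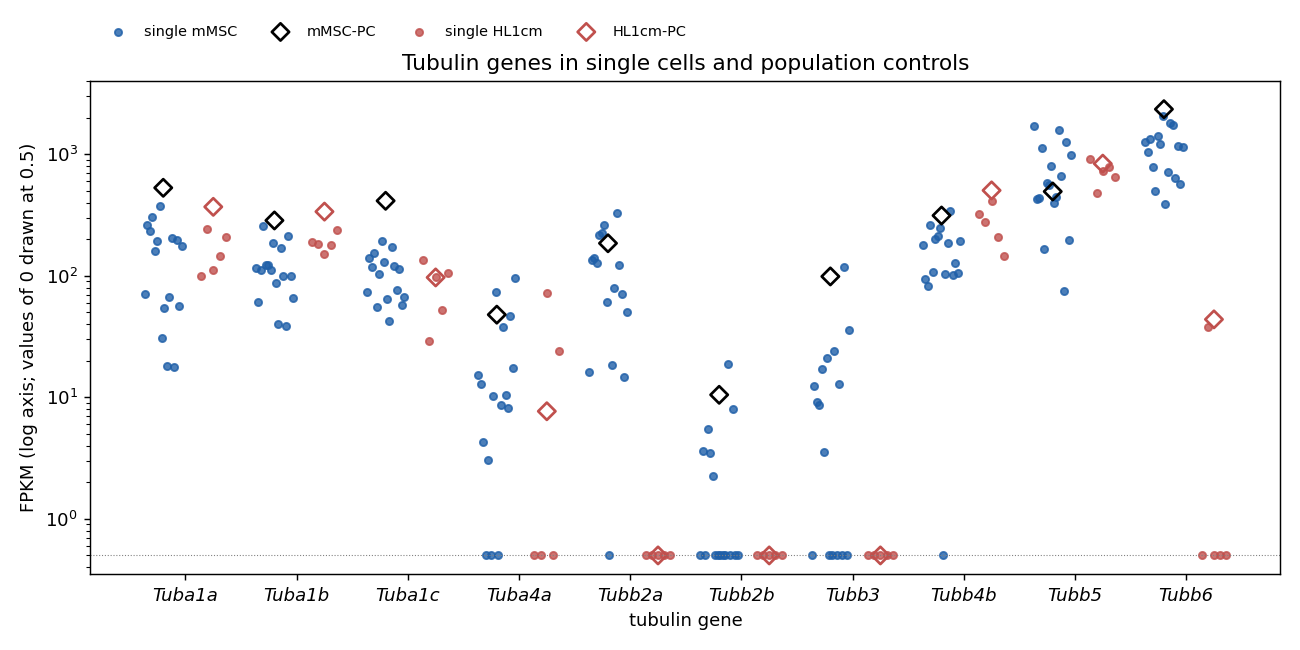
FPKM (vertical log axis, values of 0 drawn at 0.5) of the 10 tubulin genes in 16 single mMSCs (blue points), 5 single HL1cm (red points) and the population controls mMSC-PC (black diamonds) and HL1cm-PC (red diamonds). Tubb6 is the only gene whose mMSC and HL1cm points do not overlap, and Tubb2a, Tubb2b and Tubb3 lie at 0 in every HL1cm library.

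Tubb6 separated the cell types completely. This gene (chromosome 18, 67390717 to 67402749, plus strand, 4 exons) ranged in mMSCs from 388 FPKM in mMSC9 through a median of 1154 to 2069 FPKM in mMSC8, and was 2358 FPKM in mMSC-PC. In HL1cm it was 37.9 FPKM in HL1cm2 and listed at 0 in HL1cm1, HL1cm3, HL1cm4 and HL1cm5, with 43.9 FPKM in HL1cm-PC. Every mMSC therefore lay above every HL1cm. Of the 7698 genes kept, those with a mean log2 level of at least 1 over the 21 single cells, 3.47% had every mMSC above every HL1cm and 2.2% had every mMSC below, against 1 and 0 of the 9 members kept.

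Tubb2a and Tubb2b, a pair of near-identical isotypes that the brain makes in quantity, were likewise found in mMSCs. Tubb2a was above 0 in 15 mMSCs, where it ranged from 14.6 FPKM in mMSC15 to 327 FPKM in mMSC12, and was listed at 0 in mMSC9. It was 186 FPKM in mMSC-PC, and every HL1cm library was listed at 0 for it. Tubb2b was above 0 in 6 mMSCs, at 2.25 to 19.0 FPKM, and 10.5 FPKM in mMSC-PC, with the same zeros in HL1cm. All 6 mMSCs with Tubb2b also had Tubb2a and Tubb3 above 0, beside 15 and 10 of all 16 mMSCs. The highest value of both Tubb2 genes was in mMSC12, although reads may have been divided between these 2 genes.

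Tubb3 was found in only some of the mMSCs. It was above 0 in 10 of 16, or 62.5% (exact binomial 95% interval 35.4% to 84.8%, which covers the counting of cells only). The values were 119 FPKM in mMSC14, 35.6 in mMSC16, 24.1 in mMSC10, 21.2 in mMSC7, 17.2 in mMSC5, 12.97 in mMSC12, 12.4 in mMSC2, 9.20 in mMSC3, 8.67 in mMSC4 and 3.54 in mMSC6. It was listed at 0 in mMSC1, mMSC8, mMSC9, mMSC11, mMSC13 and mMSC15, and no HL1cm library, single or pooled, had it above 0. Of the mMSCs at 0, mMSC9 and mMSC15 had the fewest genes at 1 FPKM or more of all single mMSCs (5178 and 5837). With mMSC9 and mMSC15 left out, the count of mMSCs above 0 was still 10. A single cell, mMSC14, was far above the others, and 7 mMSCs reached 10 FPKM. Tubb3 in mMSC-PC was 99.0 FPKM, 6.00 times the mean of the 16 cells, and only mMSC14 exceeded it. Even so, Tubb3 was a small part of the beta tubulin transcripts, with a median of 0.39% and at most 4.32% of their summed FPKM in a single mMSC.

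The other neuron genes found in the table were nearly absent from the cells with Tubb3. Of 13 neuron markers, 12 were in the table (among them Mapt, Nefl, Dcx, Syt1 and Gap43). Map2 was not found under that symbol, so its level was not assessed. The 12 markers summed to between 0 and 11.2 FPKM in single mMSCs, and 8 of them were listed at 0 in all libraries. Only Snap25 in mMSC3 (1.30 FPKM) and Gap43 in mMSC8 (11.2 FPKM) reached 1 FPKM. Of the 10 mMSCs with Tubb3 above 0, 9 had none of the 12 markers at 1 FPKM, mMSC14 and mMSC16 included. In mMSC8, which had Gap43, Tubb3 was listed at 0. The sum was 0 in mMSC-PC and in every single HL1cm.

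**Figure D2:**
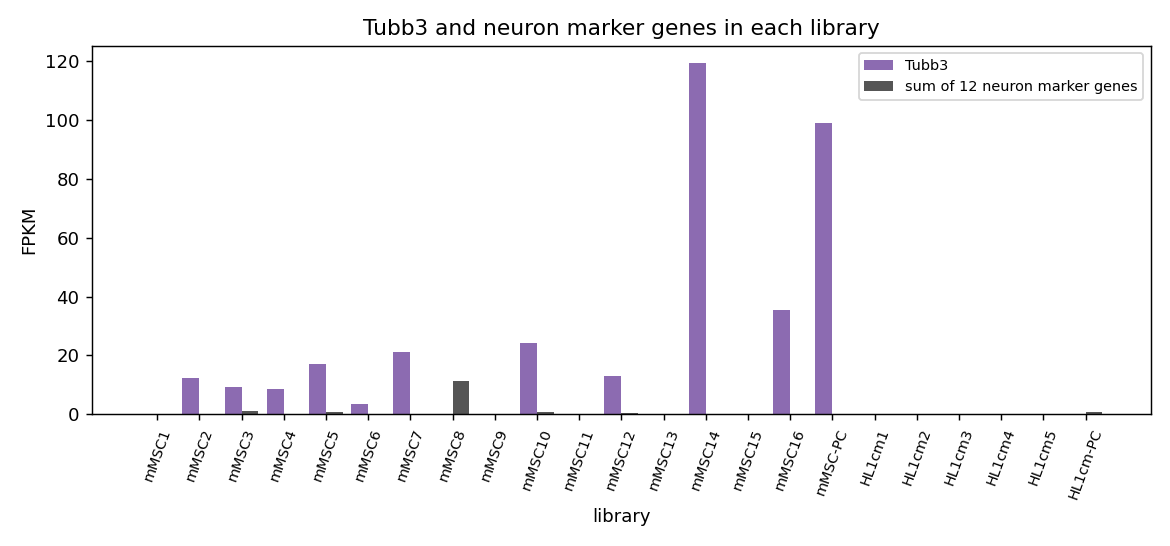
FPKM of Tubb3 (purple bars) and summed FPKM of 12 neuron marker genes (grey bars) in each of the 23 libraries, both on a linear axis from 0. Tubb3 reaches 119 FPKM in mMSC14, while the neuron markers stay at 11.2 FPKM or less in every library.

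The other 20 genes of the study's neurogenic list showed a different picture from gene to gene. Of these, 7 were listed at 0 everywhere, and 3 passed the filter on low values. Gfra1, a co-receptor for the growth factor GDNF, was above 0 in 10 mMSCs, at up to 24.1 FPKM in mMSC10, was 20.7 FPKM in mMSC-PC and was listed at 0 in all HL1cm. It was above 0 in 8 of the 10 mMSCs with Tubb3 and in 2 of the 6 without. Nr4a2, a nuclear receptor of dopamine neurons, was above 0 in 9 mMSCs with a maximum of 43.6 FPKM in mMSC15, where Tubb3 was listed at 0. S100a1, a calcium-binding protein abundant in heart muscle, was above 0 in all 16 mMSCs (23.3 to 221 FPKM) and in all 5 HL1cm (104 to 616 FPKM). Nes, which encodes nestin, reached 1 FPKM only in mMSC5 and mMSC14.

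The genes most like Tubb3 over the 16 mMSCs, by Spearman's rho of FPKM among 6768 genes, were Hp1bp3 (rho = 0.84), which encodes a heterochromatin protein, Bnip3 (0.82), of mitophagy and the response to low oxygen, and Unc5c (0.82), a netrin receptor. Unc5c was above 0 in 9 of the 10 mMSCs with Tubb3 and reached 28.1 FPKM, while its highest HL1cm value was 0. These are the top of a search through many genes in few cells, 6 of which share a Tubb3 value of 0. Among the members, Tubb3 went most with Tuba1a (rho = 0.47) and Tubb2b (0.41) and little with Tubb5 (0.09) or Tubb6 (-0.07).

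Tubb5, Tubb4b and the alpha tubulins were found in both cell types at overlapping levels. Tubb5 ranged in mMSCs from 74.6 FPKM in mMSC13 through 572 to 1718 FPKM in mMSC1, and was 917, 479, 725, 790 and 649 FPKM in HL1cm1 to HL1cm5. The single mMSCs spread on both sides of the HL1cm, with 5 above all of them and 7 below. Its log2 level averaged 9.08 ± 1.23 (SD over 16 mMSCs) and 9.44 ± 0.35 (SD over 5 HL1cm), so the difference of -0.36 was smaller than the spread between mMSCs.

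Tubb4b, a beta isotype of most tissues and of cilia, leaned towards the HL1cm. It was 324, 277, 417, 209 and 147 FPKM in HL1cm1 to HL1cm5. In mMSCs it was listed at 0 in mMSC9 and otherwise ranged from 82.3 FPKM in mMSC3 to 341 FPKM in mMSC12. No mMSC exceeded the highest HL1cm and 8 lay below the lowest. The mean log2 difference of mMSC minus HL1cm was -1.19, and without mMSC9, one of the libraries the study lists with the fewest read pairs, it was -0.73.

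Among the alpha tubulins, Tuba1a ranged from 17.7 FPKM in mMSC13 through 168 to 373 FPKM in mMSC7, and was 99.5, 244, 111, 146 and 210 FPKM in HL1cm1 to HL1cm5. Tuba1b ranged from 38.7 FPKM in mMSC13 through 112 to 255 FPKM in mMSC4, and was 190, 184, 151, 181 and 238 FPKM in HL1cm. It was the most even alpha tubulin between HL1cm, and 12 of 16 mMSCs lay below all of them. Tuba1c ranged from 42.4 FPKM in mMSC10 through 109 to 195 FPKM in mMSC7, and was 135, 29.0, 98.7, 52.8 and 106 FPKM in HL1cm. The log2 differences of mMSC minus HL1cm were -0.54 for Tuba1a, -0.83 for Tuba1b and 0.38 for Tuba1c, against SDs between mMSCs of 1.43, 0.78 and 0.65. Only that of Tuba1b exceeded its spread, and it did not with TPM (-0.49), after division by Gapdh (-0.50) or without HL1cm5 (-0.74).

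Tuba4a, whose coding sequence ends without the tyrosine codon (tat) that closes Tuba1c, was patchy in both types. It was above 0 in 13 mMSCs, at 3.07 to 96.2 FPKM (the highest in mMSC16), and was listed at 0 in mMSC4, mMSC6 and mMSC9. In HL1cm it was 72.6 FPKM in HL1cm3 and 24.3 FPKM in HL1cm5 and was listed at 0 in the other 3. The mean log2 difference of 1.09 depended on those zeros, since it was 0.55 without HL1cm1, HL1cm2 or HL1cm4, 2.10 without HL1cm3, 1.70 without HL1cm5 and -0.066 when values under 10 FPKM were set to 10. Stk16, whose gene overlaps it, had a median of 16.4 FPKM in mMSCs.

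Counted at a 2-fold difference in mean log2 level, with values under 1 FPKM set to 1, the members higher in mMSCs were Tuba4a, Tubb2a, Tubb3 and Tubb6, 4 of the 9 kept against 30.6% of all genes kept. The only member lower in mMSCs was Tubb4b, 1 of 9 against 24.4%, and without mMSC9 none was. No fold is given for Tubb2a and Tubb3, because every HL1cm library was listed at 0. These 2 genes passed the filter through the mMSCs alone, so their place among the higher members is no further support. The filter averages over 16 mMSCs and 5 HL1cm and keeps genes found only in mMSCs more readily than genes found only in HL1cm. That also affects the shares of all genes kept. The median log2 difference over all 10 members was 0.65, beside 0.18 over the 7698 genes kept, and with values under 10 FPKM set to 10 these were -0.004 and 0.04. With so few genes, nothing particular to the tubulin genes as a group is read from these counts.

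Summed over isotypes as deposited, the alpha tubulins differed by less than the spread between mMSCs and the beta tubulins were higher in mMSCs by more than it. These sums depend less than the separate genes on how reads were divided among near-identical members, but they still depend on it, because the members differ in length and share windows with genes outside the sum. The alpha sum was 109 to 717 FPKM in mMSCs (median 420) and 380 to 579 FPKM in HL1cm (median 433), a mean log2 difference of -0.34 against an SD of 0.77 between mMSCs. The beta sum was 788 to 3655 FPKM in mMSCs (median 2299) and 794 to 1241 FPKM in HL1cm (median 999). Its mean log2 difference was 0.96 against an SD of 0.74 between mMSCs, and the groups overlapped at their lower ends. With median-ratio scaling, an alternative chosen after seeing the data, the difference was 0.67 and below that SD.

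The beta to alpha ratio of summed FPKM, which needs no scaling between libraries, was 2.96 to 12.1 in single mMSCs (median 5.30) and 1.38 to 2.93 in HL1cm (median 2.63). The lowest mMSC (mMSC5) was just above the highest HL1cm (HL1cm1). In the population controls the ratio was 2.70 in mMSC-PC and 1.71 in HL1cm-PC, so mMSC-PC lay below every single mMSC.

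Tubb6 made up 34.0% to 68.1% of the beta sum in mMSCs (median 54.2%) and 0% to 4.78% in HL1cm. The share of Tubb5 ran the other way, from 8.01% to 54.2% in mMSCs (median 25.1%) and from 60.3% to 81.6% in HL1cm (median 73.9%). That of Tubb4b was 0% to 11.98% in mMSCs (median 7.93%) and 18.4% to 36.5% in HL1cm (median 26.1%). Neither share overlapped between the cell types, although the FPKM of both genes did. All shares divide the same sum, so a high share of Tubb6 by itself lowers those of Tubb5 and Tubb4b. Their separation is therefore not a finding apart from that of Tubb6. Tubb2a took a median of 4.01% in mMSCs and at most 21.3%, in mMSC5. The 4 genes Tubb2a, Tubb2b, Tubb3 and Tubb6 together held 40.0% to 81.2% of the beta sum in single mMSCs and at most 4.78% in HL1cm.

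**Figure D3:**
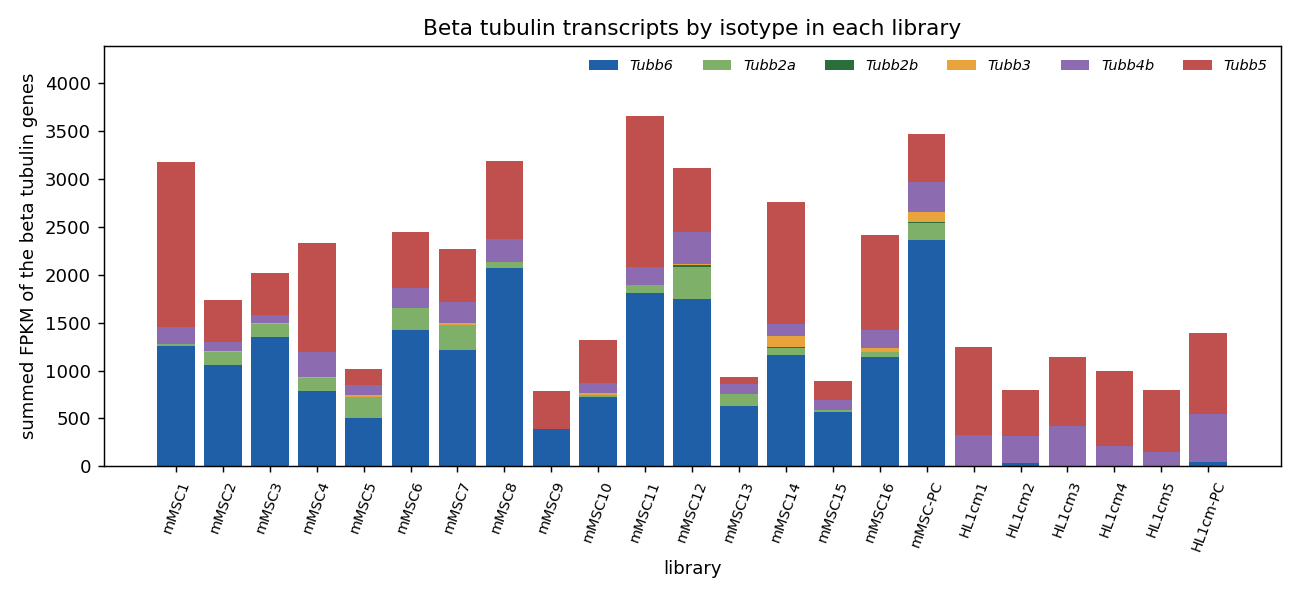
Summed FPKM of the 6 beta tubulin genes (bar height, linear axis from 0) in each of the 23 libraries, divided by isotype in colour. Tubb6 (blue) fills 34.0% to 68.1% of the bar in single mMSCs and at most 4.78% in HL1cm, where Tubb5 (red) and Tubb4b (purple) make up the rest.

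Part of the variation between mMSCs went with a list of 26 genes of mitosis, such as Aurka, Aurkb, Mki67 and Ube2c. The mean log2 FPKM of this list was highest in mMSC11 (5.61), mMSC4 (5.37) and then mMSC8, mMSC14 (4.61) and mMSC1 (4.14) and ranged down to 0.31 in mMSC10. Tuba1b followed it most closely over the 16 mMSCs (Pearson's r = 0.78, Spearman's rho = 0.78), and without mMSC4 and mMSC11, the cells farthest from the median of the list, rho was 0.70 (n = 14). Tubb5 followed it less (r = 0.58, rho = 0.60, and 0.45 without those 2 cells), as did the beta sum (r = 0.56, rho = 0.59, and 0.51). The values for Tubb4b (rho = 0.46), Tuba1c (0.41) and Tubb6 (0.31) were lower, and those for Tuba1a (0.08), Tubb2a (-0.01) and Tubb3 (-0.18) were near 0. Gapdh, a gene of glycolysis in steady use, had a rho of 0.04.

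These relations depended in part on the scale. On the TPM scale, where all libraries have equal totals, rho was 0.44 for Tuba1b, 0.36 for Tubb5 and 0.16 for the beta sum. The shares of the beta sum, which do not change with a rescaling of the library, had a rho of 0.44 for Tubb5 and -0.47 for Tubb6 against the list as deposited. The list itself does change with the scale, and against its TPM values these were 0.29 and -0.36. Without mMSC4 and mMSC11, as deposited, they were 0.30 and -0.34. Both shares divide the same sum, so their values are not independent of each other. All points share 1 chip, with no separate cultures named, and they are described here with no test.

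**Figure D4:**
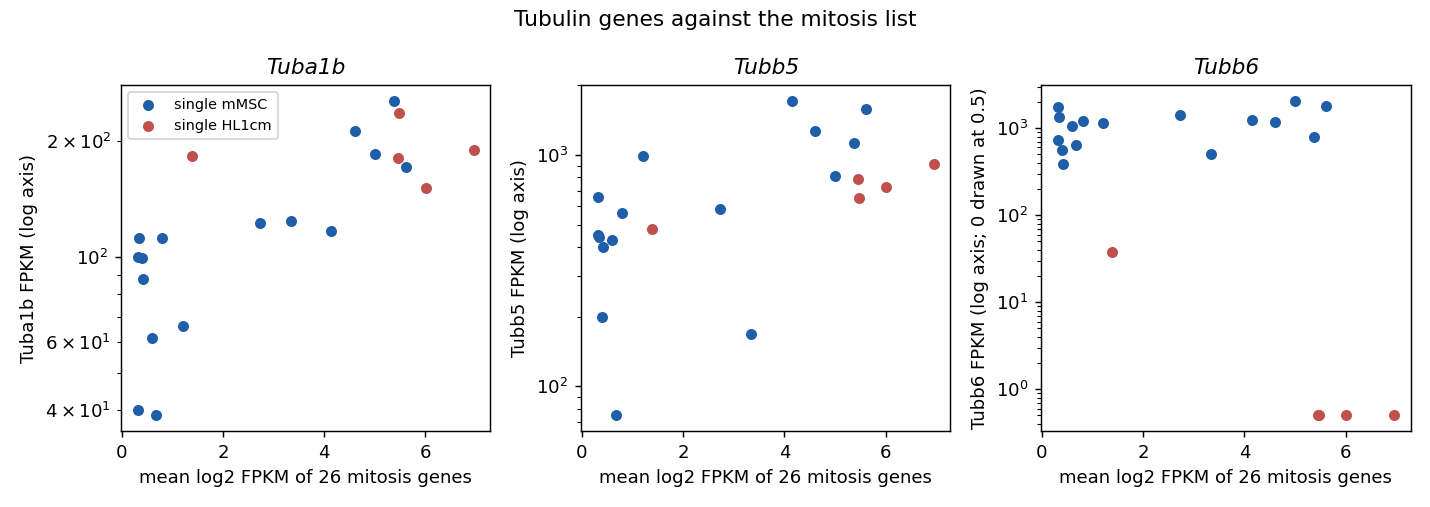
FPKM of Tuba1b, Tubb5 and Tubb6 (vertical log axes, values of 0 drawn at 0.5) against the mean log2 FPKM of 26 mitosis genes in 16 single mMSCs (blue) and 5 single HL1cm (red). The rho over the mMSCs is 0.78 for Tuba1b, 0.60 for Tubb5 and 0.31 for Tubb6.

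The HL1cm were mostly higher on this list than the mMSCs. Their mean log2 FPKM was 1.39 in HL1cm2 and 5.46 to 6.95 in the other 4. Of the 26 genes, 25 were 2-fold or more lower in mMSCs, beside 24.4% of all genes kept. Tubb6 was listed at 0 in the HL1cm with the 4 highest values, and in mMSCs it was above 0 at every value of the list. The part of cell division in the differences between the cell types was not tested.

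The genes whose mMSC pattern was nearest that of Tubb5 were Mybl2 (rho = 0.85), a transcription factor of the cell cycle, Rif1 (0.85), which times DNA replication, and Haus8 (0.83), a subunit of the augmin complex that makes new microtubules in the spindle. Those nearest Tubb4b were Haus3 (0.78), another augmin subunit, Mdp1 (0.78) and Gtf2h3 (0.77), a subunit of the transcription factor TFIIH. As for Tubb3, these are the top of a search through 6768 genes in few cells. Mybl2 was above 0 in 8 mMSCs, Haus8 in 9 and Haus3 in 13. Between members, the highest values were Tubb5 with Tubb6 (rho = 0.65), Tuba1a with Tubb2a (0.65), Tuba1c with Tubb6 (0.62) and Tubb4b with Tubb5 (0.60).

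The spread between single mMSCs differed from member to member. The SD between mMSCs of log2 FPKM had a median of 1.40 over the 10 members, beside 1.56 over the genes kept. It was lowest for Tuba1c (0.65), Tubb6 (0.71) and Tuba1b (0.78) and highest for Tubb3 (2.29), Tubb2a (2.13) and Tuba4a (2.10), each of which had mMSCs listed at 0. Tubb5, which was above 0 in every mMSC, still differed 23.01-fold between mMSC13 and mMSC1, and Tuba1a 21.1-fold between mMSC13 and mMSC7, while Tubb6 differed 5.33-fold and Gapdh 2.04-fold.

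Most tubulin genes had a higher FPKM in mMSC-PC than on average in the single mMSCs. In mMSC-PC, Tuba1a was 531 FPKM, Tuba1b 286, Tuba1c 415 and Tubb6 2358 FPKM, each above every single mMSC. These are 4 of the 9 members kept, beside 9.35% of all genes kept. The ratio of mMSC-PC to the mean of the 16 cells was 3.94 for Tuba1c, 3.51 for Tuba1a, 2.40 for Tuba1b and 2.11 for Tubb6. Tubb5 went the other way, at 495 FPKM in mMSC-PC, 0.69 times the mean of the cells. The median log2 difference over the 10 members was 1.21, beside 0 over all genes kept.

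Gapdh was itself 551 FPKM in mMSC-PC against 157 to 319 FPKM in single mMSCs, 2.60 times the mean of the cells. With each library divided by its Gapdh, the median over the members was -0.15. The ratios of Tuba1c and Tuba1a were above that of Gapdh, and those of Tuba1b and Tubb6 below it. In a population library, more cells with a transcript and more transcript per cell cannot be told apart.

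Between the population controls, 6 members were 2-fold or more higher in mMSC-PC than in HL1cm-PC (Tuba1c, Tuba4a, Tubb2a, Tubb2b, Tubb3 and Tubb6), beside 22% of the 10716 genes that reached 2 FPKM in either control. No member was 2-fold lower, beside 41.9% of those genes. Tuba1c was 415 FPKM in mMSC-PC and 97.2 FPKM in HL1cm-PC, a gap that the single cells, with medians of 109 and 98.7 FPKM, did not show. Tubb4b was 314 and 506 FPKM, and Tubb5 495 and 840 FPKM. The direction thus matched that of the single cells for Tubb4b, Tubb5 and Tubb6, while the alpha sum was higher in mMSC-PC (1281 FPKM) than in HL1cm-PC (814 FPKM) and slightly lower on average in the single mMSCs. Each control is 1 library, with no replicate.

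Most genes whose products fold and join tubulins passed the filter on low values. Of 19 folding genes in the table, 18 were kept, with a median log2 difference of 0.37. Of these, 3 were 2-fold or more higher in mMSCs and 2 were lower, beside 30.6% and 24.4% of all genes kept. Tbce, a cofactor that helps to assemble the dimer, had a median of 22.9 FPKM in mMSCs and 2.00 FPKM in HL1cm, but the population controls had the opposite order (4.22 FPKM in mMSC-PC and 43.5 FPKM in HL1cm-PC). Cct2, a subunit of the chaperonin that folds new tubulin, was 155 to 453 FPKM in mMSCs and 29.3 to 284 FPKM in HL1cm. Tbcb, another cofactor, had a median of 75.5 FPKM in mMSCs and 231 FPKM in HL1cm, and Pfdn2, of the prefoldin complex that hands tubulin to the chaperonin, 39.0 and 55.7 FPKM.

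The other tubulin genes were scarce. Of 10 (alpha, beta, gamma, delta and epsilon tubulins), 3 were listed at 0 in all libraries and 2 were kept. Both were lower in mMSCs, beside 24.4% of all genes kept. Tubg1, the gamma tubulin from which microtubules are started, had a median of 13.6 FPKM in mMSCs and 60.4 FPKM in HL1cm. Tuba8 was above 0 in 3 mMSCs and 2 HL1cm. Of 11 genes for nucleation and severing, 7 were kept, 2 higher and 4 lower in mMSCs, beside 30.6% and 24.4% of all genes kept. Katna1, the catalytic subunit of the severing enzyme katanin, had medians of 37.0 FPKM in mMSCs and 3.93 FPKM in HL1cm, though 34.5 FPKM in mMSC-PC and 49.5 FPKM in HL1cm-PC. Fign, another severing enzyme, had medians of 0 and 23.6 FPKM, though only 1.39 FPKM in HL1cm-PC. Cdk5rap2, which anchors gamma tubulin at the centrosome, had medians of 0 and 17.8 FPKM.

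Of 23 microtubule-associated genes listed, 16 were found in the table. Of these, 10 were kept, 3 higher and 4 lower in mMSCs, beside 30.6% and 24.4% of all genes kept. Stmn1 (stathmin), which binds free tubulin dimers, had the largest difference. It was 0 to 545 FPKM in mMSCs (median 44.7) and 963 to 2129 FPKM in HL1cm, with no overlap, and its highest mMSC values, in mMSC8 and mMSC4 (510 FPKM), were in cells high on the mitosis list. Clip1 and Clasp1, which bind growing ends, had medians of 11.8 and 8.66 FPKM in mMSCs and 23.98 and 22.5 FPKM in HL1cm. Camsap2, which binds the slow-growing ends, had medians of 3.79 and 0.33 FPKM.

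Of 15 genes that modify tubulin, 7 were kept, 1 higher and 2 lower in mMSCs, beside 30.6% and 24.4% of all genes kept. The higher one was Agtpbp1, which shortens glutamate chains on the tail, with medians of 3.37 FPKM in mMSCs and 0 in HL1cm. The lower ones were Ttll1, which adds glutamates to the tail (7.19 and 34.9 FPKM), and Ttc5, which takes part in the decay of tubulin mRNA when free tubulin is high (4.96 and 34.1 FPKM). Ccdc23, whose small protein helps to remove the terminal tyrosine, had medians of 47.9 and 43.0 FPKM. Of 14 genes of interphase motors, 11 were kept, 3 higher and 2 lower in mMSCs, beside the same shares of all genes kept. The 3 higher were the dynein subunits Dync1i2 (medians of 26.3 and 12.1 FPKM) and Dync1li1 (16.4 and 6.04 FPKM) and the dynactin subunit Dctn2 (61.5 and 15.1 FPKM), while Dctn3, also of dynactin, had medians of 14.5 and 80.0 FPKM.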

How the data were processed

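The values were FPKM per gene, which the authors made by aligning paired reads of 75 bases to mm10 with TopHat2 2.0.12 and estimating abundance with Cufflinks 2.2.1, and which were deposited as 1 table of 23284 genes and 23 libraries. Cufflinks divides reads that match several genes, which can move values between near-identical tubulins. FPKM keeps no read counts per gene, so no count model was used. The aligned read pairs that the study lists for each single cell are not repeated here. All values were used as deposited.

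The members and the gene lists were chosen with earlier results of these data known. For log2 levels, 1 FPKM was the lowest value allowed, and 7698 genes with a mean log2 of at least 1 over the 21 single cells were kept. More of these cells were mMSCs, so the filter favours genes found only in mMSCs. Each cell type is 1 sample, since no separate cultures are named, so differences of mean log2 were described by a 2-fold limit with no test, SDs are spreads between cells, and correlations carry no p. Outliers were sought in the 5 HL1cm with Dixon's ratio (limit 0.71). The genes named are the members, at most 4 genes a list with the largest differences among genes kept, the 3 genes most alike in pattern to Tubb3, Tubb5 and Tubb4b, and Gapdh. Chosen after their values were seen were Nes, Snap25, Gap43, Mc1r, Stk16, Fam166a, Cd68, Itgam, Ptprc, Emr1 and Lyz2. Alternatives changed the floor, the scaling, the libraries and the use of population controls. The scripts were tested on simulated data. Sequences and gene positions came from GENCODE M21 (GRCm38, the sequence of mm10), and proteins were aligned with Biopython. Python 3.11.15, numpy 2.4.6, pandas 2.3.3 and scipy 1.17.1 were used. The tail sequences of Tuba1a, Tuba1b and Tubb6 and 1 gene of the lists are not reported here.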

Additional observations from a re-analysis of the deposited data

Results flagged for a closer look

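Tubb6 in HL1cm2 stood apart from the other HL1cm, at 37.9 FPKM (37.9458 in the deposited table) where HL1cm1, HL1cm3, HL1cm4 and HL1cm5 were listed at 0. The other members were searched in the same way in the 5 HL1cm, 9 groups of values in all, and chance marks about 1 in 20 groups of untied values. That rate does not hold here, since any single value above 4 zeros is marked whatever its size. HL1cm2 was also the lowest HL1cm on the mitosis list (mean log2 FPKM of 1.39 against 5.46 to 6.95). Of the MSC markers, Ly6a, Cd9 and Col1a2 were listed at 0 in this cell and Cd44 was 1.94 FPKM. HL1cm-PC held Tubb6 at 43.9 FPKM. The part of these values in the result was not tested.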

How the results depend on the processing

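No paired analysis was possible because mMSC and HL1cm share only cell numbers and no test was made. Of the values that the alternatives gave for the main results, 135 stayed within 1 SD between cells or, for counts, within 1.5 times the main value, 11 moved further and 1 reversed. A value near 0 can change sign within 1 SD. Most of these values were repeats with a single cell left out. For some results the SD was larger than the value, as for the median difference over the members (0.65, SD 0.68). Its change to -0.004 with values under 10 FPKM set to 10 thus counts as within 1 SD, so the tally is a weak check.

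The count of members 2-fold higher in mMSCs was 4, and it was 2 with values under 10 FPKM set to 10, where the median difference over the members went from 0.65 to -0.004. The count of members 2-fold lower was 1, and it was 0 with that floor, with each library rescaled to TPM over all genes, after division by Gapdh, without mMSC9 and mMSC15 and between the population controls, and 2 (Tuba1b and Tubb4b) with median-ratio scaling, an alternative chosen after seeing the data. Without mMSC9 alone, also chosen after seeing the data, it was 0. The correlation of the beta sum with the mitosis list was 0.16 with TPM. The median difference of mMSC-PC from the mean of the mMSCs was 1.21 and reversed to -0.15 after division by Gapdh. Between the population controls the median difference over the members was 2.37 and that of the alpha sum 0.65. Tuba4a reversed to -0.066 with values under 10 FPKM set to 10. The cause of these changes was not tested.

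The scaling moved the median over all genes kept from 0.18 to 0.45 with TPM, 0.44 with Gapdh and -0.05 with median ratios. The alpha sum difference was -0.006 with TPM and -0.01 with Gapdh, while the beta sum difference stayed between 0.67 and 1.30 over the scalings. The lowest, with median ratios, was below the SD between mMSCs of 0.74 as deposited. Leaving out each HL1cm, or mMSC9, in turn gave 3 to 4 members higher, 0 to 1 lower, a median difference of 0.30 to 0.71, an alpha sum difference of -0.41 to -0.25 and a beta sum difference of 0.89 to 1.05. Leaving out each mMSC gave a correlation of 0.50 to 0.76, a median SD of 1.33 to 1.44, a median Tubb3 share of 0.37% to 0.42% and a control difference of 1.15 to 1.38. Tubb3 was above 0 in 10 mMSCs, all at 1 FPKM or more, and 7 reached 10 FPKM. The number of reads behind low values and zeros is not known, which limits what a single 0 can show.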
